A study of Mus musculus with 4 samples.

Results

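The genes described here are 9 genes of cytotoxic granules and killer lectin receptors: Nkg7, Gzmb, Gzma, Gzmk, Prf1, Ctsw, Klrd1, Klrk1 and Klrg1. They were taken by name, as every probe set that names that gene alone, and they are 9 of the 18194 genes that at least 1 probe set names alone. The 9 genes have 10 probe sets, Prf1 having 2 and each other gene 1. Expression was measured in 4 cultures of mouse T cells, with 1 Affymetrix array and no replicate per group.

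The groups were STAT3-deficient cells (CD4-Cre stat3 fl/fl OT2) and their STAT3 wild type control (stat3 fl/fl OT2), and STAT5-deficient cells (CD4-Cre stat5 fl/fl OT2) and their STAT5 wild type control (stat5 fl/fl OT2). All mice were C57BL/6J and carried OT2, a transgenic T cell receptor for an ovalbumin peptide. CD4-Cre is active from T cell development on, in CD4 and CD8 T cells alike, so the deletion is not confined to Th17 cells. Naive CD4+CD44-CD62L+ cells were sorted from spleen and lymph nodes and cultured for 72 h on anti-CD3 and anti-CD28 with IL-6 at 20 ng/ml, TGF-beta at 2 ng/ml and anti-IL-4, a Th17 condition. The STAT3-deficient and STAT3 wild type cultures also received anti-IL-2 at 10 ug/ml, whereas the STAT5-deficient and STAT5 wild type cultures received IL-2 at 100 IU/ml. The 2 control cultures therefore differ both in IL-2 and in the floxed line, which cannot be told apart. The labels do not say how many animals gave each culture or whether animals were pooled.

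Cytotoxic lymphocytes, chiefly NK cells and CD8 T cells, kill by releasing granules onto a target cell. Perforin (Prf1) opens pores in the target membrane, granzymes (Gzma, Gzmb, Gzmk) are serine proteases that enter through them, NKG7 is a granule membrane protein needed for efficient release, and cathepsin W (Ctsw) is a cysteine protease of cytotoxic cells. CD94 (Klrd1) pairs with NKG2 proteins to read class I-like molecules on other cells, NKG2D (Klrk1) activates on stress-induced ligands, and KLRG1 inhibits on binding cadherins. STAT3 carries the IL-6 signal and STAT5 the IL-2 signal, and each acts as a DNA-binding transcription factor. CD4 T cells can also acquire such granules.

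The promoter sequences of 4 of these genes are shown because Nkg7 and Gzmb were higher in both deficient cultures, Klrk1 passed the 2-fold rule used below in the STAT3 pair and not in the STAT5 pair, and Prf1 passed it in neither. RefSeq promoters were matched by symbol for 6 of the 9 genes. Each run holds the 250 bases before the transcription start in GRCm38.p6, read 5' to 3' on the gene's own strand. The windows are chr7:43436888-43437137 (+) for Nkg7, chr14:56262335-56262584 (-) for Gzmb, chr6:129623865-129624114 (-) for Klrk1 and chr10:61297586-61297835 (+) for Prf1. Capitals mark matches, on either strand, to TTCNNNGAA (the GAS element that STAT proteins bind), AGGTGTGA (T-box factors), TGTGGT (RUNX factors) and TGANTCA (AP-1).
Nkg7: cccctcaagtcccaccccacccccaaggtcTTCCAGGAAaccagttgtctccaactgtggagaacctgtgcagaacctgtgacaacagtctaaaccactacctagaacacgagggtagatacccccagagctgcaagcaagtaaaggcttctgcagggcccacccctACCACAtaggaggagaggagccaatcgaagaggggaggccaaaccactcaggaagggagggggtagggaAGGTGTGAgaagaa
Gzmb: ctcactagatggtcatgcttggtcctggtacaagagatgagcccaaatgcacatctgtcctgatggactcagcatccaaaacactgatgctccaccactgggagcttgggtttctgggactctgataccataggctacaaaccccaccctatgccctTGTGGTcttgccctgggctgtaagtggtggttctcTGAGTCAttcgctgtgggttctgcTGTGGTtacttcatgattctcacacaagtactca
Klrk1: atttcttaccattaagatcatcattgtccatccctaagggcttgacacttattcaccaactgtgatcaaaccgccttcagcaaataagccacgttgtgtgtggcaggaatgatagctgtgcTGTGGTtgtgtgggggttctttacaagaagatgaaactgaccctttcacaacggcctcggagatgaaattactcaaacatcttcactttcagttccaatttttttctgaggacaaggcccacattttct
Prf1: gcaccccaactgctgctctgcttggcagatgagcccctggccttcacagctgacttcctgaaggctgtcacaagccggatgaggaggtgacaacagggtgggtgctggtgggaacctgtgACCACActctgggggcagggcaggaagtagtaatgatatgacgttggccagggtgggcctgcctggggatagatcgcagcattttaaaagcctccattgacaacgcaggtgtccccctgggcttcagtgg

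The Nkg7 window holds a GAS match at 220 to 212 bases before the start, a RUNX match at 83 to 78 and a T-box match at 14 to 7. The Gzmb window holds 2 RUNX matches, starting 93 and 34 bases before the start, and an AP-1 match at 58 to 52. The Klrk1 and Prf1 windows each hold a RUNX match, starting 129 and 130 bases before the start. Of 32841 RefSeq windows of the same length, 7.02% hold the GAS letters, 1.12% the T-box letters, 14% the RUNX letters and 6.75% the AP-1 letters. Among the 6 matched windows, 5 hold the RUNX letters and 1 each the other 3 motifs, and no matches of different motifs overlap. These are matches of letters, and binding was not measured here.

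The targeted genes bear on the labels, since the genotype labels of both deficient samples carry Cre yet end in the words for wild type. Stat3 stood at 9.93 in STAT3-deficient cells and 12.87 in STAT3 wild type cells on the log2 scale, and its 4 probe sets differed by -2.94, -2.97, -0.22 and -0.41. Stat5a stood at 5.91 in STAT5-deficient cells and 10.92 in STAT5 wild type cells, and Stat5b at 6.09 and 11.33 in the same order. Array medians ran from 6.10 to 6.34. A value at or under 6.20, the median of all values, is called background here, and 95% of the values of 44 olfactory receptor probe sets lie at or under the same level. The comparisons use the 12440 genes, 68.4% of all, whose highest value exceeds it. Differences of log2 values are called higher or lower at 2-fold, and no p-value is given because each group has 1 array. The median SD between probe sets of one gene was 0.23 for the STAT3 difference, 0.17 for the STAT5 difference and 0.21 between the controls (5557 genes), which covers probe set error and not variation between cultures.

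The CD4 T cell label held on every array: 7 of 7 measured markers were above background, with summed linear signals from 33946 to 39252. Markers of other cells that carry these genes gave smaller summed signals than the CD4 T cell markers. Of 7 measured NK cell markers, 2 were above background in STAT3-deficient cells and 3 in each other culture, their summed signal was 318 to 399, and Ncr1, Tyrobp, Klra7 and Klra8 were at background on all 4 arrays. Of 2 CD8 T cell markers, 1 was above background in STAT3-deficient cells and 2 in each other culture. Cd8b1, above background on all 4 arrays, stood at 7.91 in STAT3-deficient and 8.06 in STAT3 wild type cells. It stood at 7.81 in STAT5-deficient and 7.70 in STAT5 wild type cells, and Cd8a at 6.18, 6.88, 6.23 and 6.21 in the same order of cultures. The CD8 sum was thus 313 in STAT3-deficient against 385 in STAT3 wild type cells, and 300 in STAT5-deficient against 282 in STAT5 wild type cells. The summed gamma delta T cell signal was 194 to 268 (2 of 7 markers measured), the NKT cell marker Zbtb16 lay between 6.18 and 6.66, the B cell sum was 149 to 205 and the myeloid sum 305 to 363. In these bulk cultures, fewer cells expressing a gene and less RNA per cell cannot be told apart.

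Of the 7 members above background on at least 1 array, 3 were higher in STAT3-deficient than in STAT3 wild type cells (Nkg7, Gzmb and Klrk1) and 1 was lower (Klrd1). Over all compared genes 10.1% passed 2-fold in this comparison, 2.85% higher and 7.23% lower. In STAT5-deficient against STAT5 wild type cells, 2 members were higher (Nkg7 and Gzmb) and 1 was lower (Klrd1), where 3.60% of all genes passed, 1.86% higher and 1.74% lower. The remaining 2 members, Gzma and Gzmk, were at background on all 4 arrays. The 7 compared members had a median difference of -0.69 for STAT3 and -0.05 for STAT5, against -0.20 and 0.06 over all compared genes. Those middle values belong to Klrg1 for STAT3 and Klrk1 for STAT5, each at background in both cultures of the pair. With values raised to background, both medians were 0.00 and Nkg7, Gzmb and Klrd1 were the members still past 2-fold in either deletion.

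**Figure D1:**
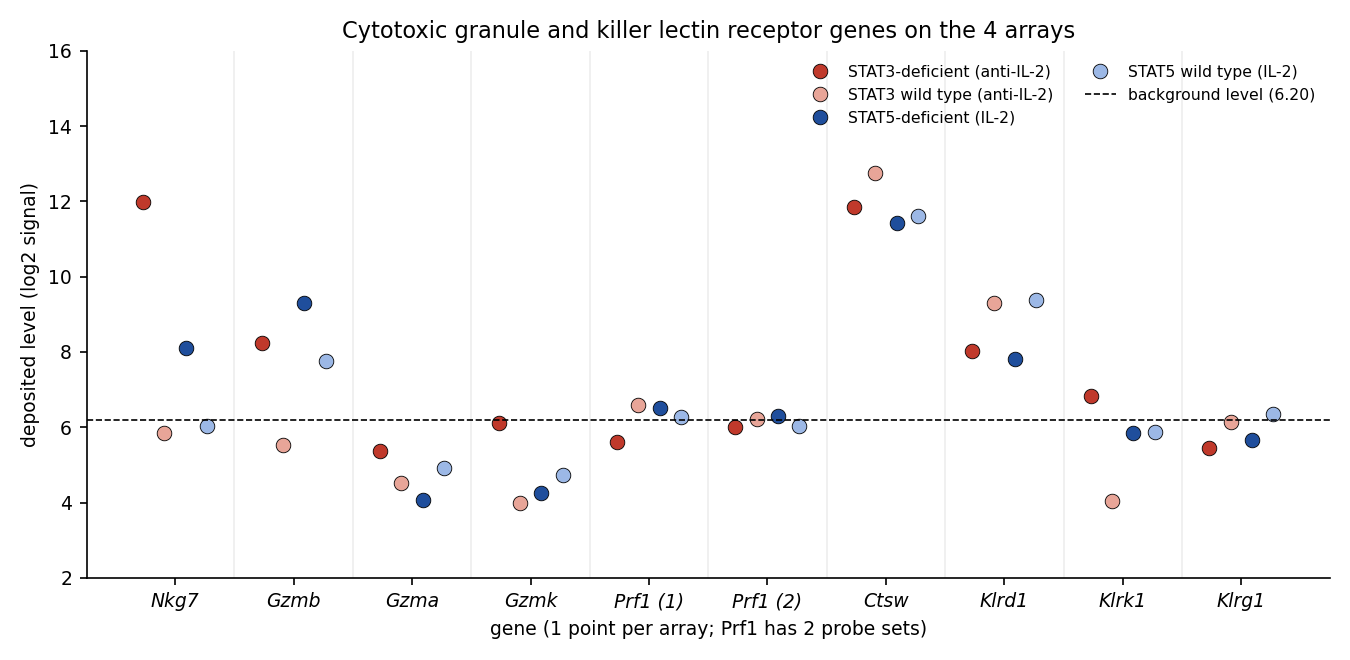
Level of each of the 9 genes on the log2 scale on each of the 4 arrays, 1 point per array and probe set, with the background level of 6.20 marked. Nkg7 reaches 11.98 in STAT3-deficient cells and 8.11 in STAT5-deficient cells while both controls lie under the background level, and Gzma and Gzmk lie under it on every array.

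Nkg7 stood at 11.98 in STAT3-deficient cells and 5.86 in STAT3 wild type cells, and at 8.11 in STAT5-deficient cells and 6.04 in STAT5 wild type cells. It was at background in both controls and above it in both deficient cultures. Because the controls were at background, the folds are lower bounds: Nkg7 was at least 55.0-fold higher with STAT3 deficiency and at least 3.77-fold higher with STAT5 deficiency. With all values at background raised to it, the differences were 5.78 and 1.92, the second highest of 12440 genes for STAT3 and the 18th highest for STAT5. The deposited values differ by 6.12 and 2.07.

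Gzmb, the granzyme that cleaves caspases, stood at 8.25 in STAT3-deficient cells and 5.52 in STAT3 wild type cells, and at 9.29 in STAT5-deficient cells and 7.76 in STAT5 wild type cells. STAT3 wild type was the only array at background, and each deficient culture was above its own control. Gzmb was at least 4.13-fold higher with STAT3 deficiency and 2.88-fold higher with STAT5 deficiency, and the deposited values differ by 2.72 and 1.53. With values raised to background the differences were 2.05 (80th highest) and 1.53 (51st highest). Among controls it was at least 2.96-fold higher in STAT5 wild type than in STAT3 wild type cells, a log2 difference of 1.56 with values raised to background (66th highest). The highest of the 4 levels was thus in the STAT5-deficient culture, where IL-2 was present.

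The other granzymes on the list gave no measurable level. Gzma, which cleaves proteins outside the caspase route, read 5.37 in STAT3-deficient, 4.51 in STAT3 wild type, 4.06 in STAT5-deficient and 4.93 in STAT5 wild type cells. Gzmk, encoded beside Gzma on chromosome 13, read 6.10, 4.0, 4.26 and 4.74 in the same order. All 8 values lie under the background level, so no fold is given for either gene.

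Prf1 was near background on all arrays. Its brighter probe set read 5.60 in STAT3-deficient and 6.59 in STAT3 wild type cells, and 6.51 in STAT5-deficient and 6.28 in STAT5 wild type cells. The STAT3-deficient value was at background, so the difference of -0.99 for STAT3 gives a bound of at least 1.31-fold lower, and it was -0.60 with the probe sets averaged and -0.39 with values raised to background. The difference for STAT5 was 0.23. Its other probe set gave -0.22 and 0.24. The STAT3 differences of the 2 probe sets lie farther apart than the median probe set SD, and no Prf1 probe set was higher in STAT3-deficient cells, where Nkg7 and Gzmb were.

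Ctsw was far above background everywhere, at 11.86 in STAT3-deficient, 12.75 in STAT3 wild type, 11.42 in STAT5-deficient and 11.62 in STAT5 wild type cells. The STAT3 wild type culture was the highest of the 4. The differences of -0.89 with STAT3 deficiency and -0.20 with STAT5 deficiency did not reach 2-fold. Between controls Ctsw was 2.19-fold lower in STAT5 wild type than in STAT3 wild type cells, a difference of -1.13. After centring each array on its median this last difference was -0.94 and no longer passed 2-fold.

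Klrd1 stood at 8.02 in STAT3-deficient and 9.30 in STAT3 wild type cells, and at 7.81 in STAT5-deficient and 9.38 in STAT5 wild type cells. It was above background on all arrays, and the controls were alike at a difference of 0.08. Klrd1 was 2.42-fold lower with STAT3 deficiency and 2.95-fold lower with STAT5 deficiency, the 421st and the 51st lowest of all genes on the same raised scale. It was the one member lower in both deficient cultures by the 2-fold rule.

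Klrk1 read 6.84 in STAT3-deficient and 4.05 in STAT3 wild type cells, and 5.84 in STAT5-deficient and 5.88 in STAT5 wild type cells. Only the STAT3-deficient culture was above background, so the difference of 2.79 supports a bound of at least 1.56-fold and no more. For STAT5 deficiency the difference was -0.05 with both cultures at background. The difference of 1.83 between controls likewise compares values at background, although it counts as a call under the 2-fold rule.

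Klrg1 read 5.44 in STAT3-deficient and 6.13 in STAT3 wild type cells, and 5.65 in STAT5-deficient and 6.34 in STAT5 wild type cells. STAT5 wild type was the one culture above background. Both differences were -0.69, the first between values at background and the second at least 1.10-fold lower in STAT5-deficient cells.

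**Figure D2:**
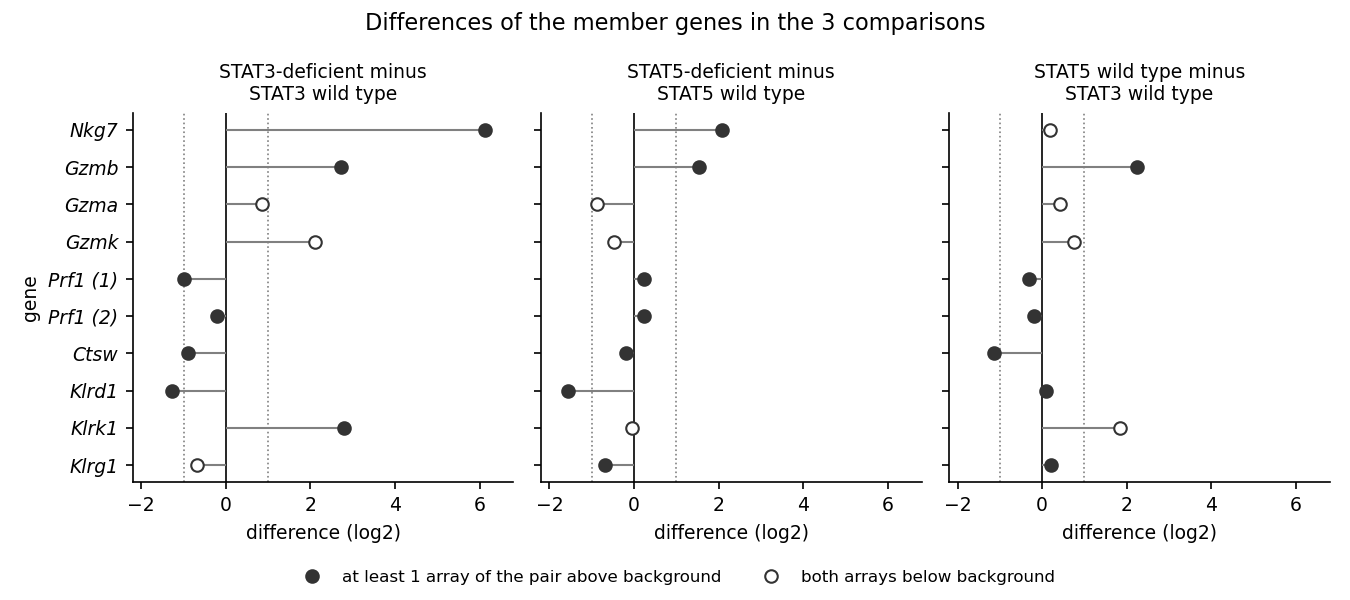
Difference of log2 values for each of the 9 genes in the 3 comparisons (each deficient culture minus its control, and the control given IL-2 minus the control given anti-IL-2), with dotted lines at 2-fold and open points where both arrays are below background. Nkg7 and Gzmb lie above the upper line in both deletions and Klrd1 below the lower line in both.

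The 2 deletions share no array. Over all genes 47 (0.378%) were 2-fold higher in both deletions and 68 (0.547%) were 2-fold lower in both. Among the 7 compared members, Nkg7 and Gzmb were higher in both and Klrd1 was lower in both. The scatter of all compared genes shows where the members lie: Nkg7 is the member farthest along the STAT3 axis, whereas Klrd1 is the member farthest down the STAT5 axis. Between the controls, Gzmb was higher and Ctsw lower in STAT5 wild type than in STAT3 wild type cells, and Klrk1 passed the rule only on values at background (0.00 with values raised to it), where 5.30% of all genes passed, 2.35% higher and 2.95% lower. Each control is also the reference of 1 deletion comparison, so this comparison and the deletion comparisons are not independent.

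**Figure D3:**
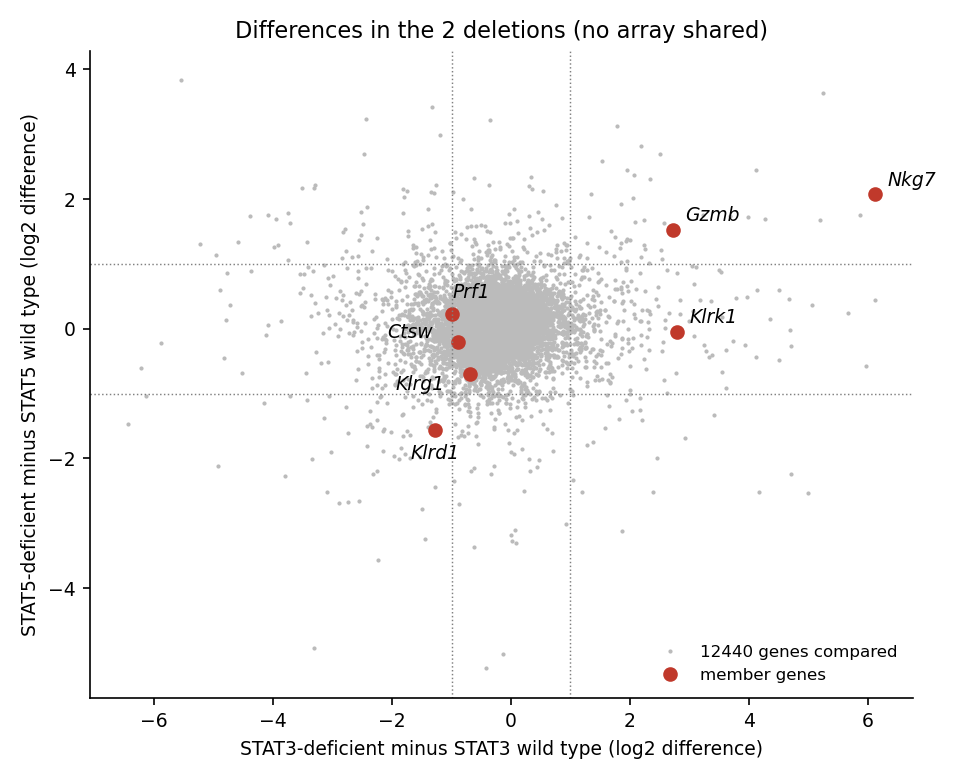
STAT3-deficient minus STAT3 wild type difference (x axis) against STAT5-deficient minus STAT5 wild type difference (y axis), both on the log2 scale, 1 grey point per compared gene with the members named. Nkg7 at 6.12 and 2.07 and Gzmb at 2.72 and 1.53 lie in the upper right, and Klrd1 at -1.27 and -1.56 in the lower left.

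Genes that process, fill and release granules included 4 lysosomal and granule genes that were lower in STAT3-deficient cells. Of 16 compared genes of granule maturation and exocytosis, STAT3-deficient cells had 0 higher and 4 lower, and 1 was higher and 0 lower in STAT5-deficient cells, with median differences of -0.47 and -0.01. Over all compared genes 2.85% were higher and 7.23% lower for STAT3, so 0 of 16 higher is near that share. The 4 of 16 lower are above their share, which was not tested. For STAT5 1.86% of all compared genes were higher and 1.74% lower. The 4 lower ones were the lysosomal protease Ctsl (-1.69), the lysosomal membrane gene Lamp2 (-1.32), Lyst, whose loss gives giant granules (-1.30), and Ctsc, which activates pro-granzymes (-1.26). The probe sets of Ctsl ranged from -1.69 to -0.20, of Lamp2 from -1.36 to -0.91 and of Lyst from -1.30 to -0.68. Those of Ctsc ranged from -1.96 to -1.26. Gnptab, which tags lysosomal enzymes for sorting, was higher by 1.0 with STAT5 deficiency, at the 2-fold threshold. Its probe sets ranged from 0.84 to 1.0. Of the 7 other granzymes, 1 was compared, Gzmm, at -0.16 and -0.07 for STAT3 and STAT5.

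Inhibitors of granzymes and cathepsins were mixed. Here and in the next lists, differences are of the deposited values, and a fold is given as a lower bound where 1 culture of the pair was at background. Of 7 compared, STAT3-deficient cells had 2 higher and 1 lower, with a median of -0.09. In STAT5-deficient cells 1 was higher and 0 lower, with a median of 0.15. Over all compared genes 2.85% were higher and 7.23% lower for STAT3, and 1.86% and 1.74% for STAT5. Serpinb9, which inhibits granzyme B, stood at 8.88 in STAT3-deficient and 6.38 in STAT3 wild type cells, and at 7.30 in STAT5-deficient and 4.60 in STAT5 wild type cells. It was 5.69-fold higher with STAT3 deficiency and at least 2.14-fold higher with STAT5 deficiency. The Serpinb9 probe sets ranged from 1.84 to 2.51 for STAT3 and from 1.07 to 2.70 for STAT5. Serpinb6b, of the same serpin family, stood at 10.36, 6.00, 7.10 and 6.95 in the same order, at least 17.9-fold higher with STAT3 deficiency and 1.11-fold with STAT5 deficiency. Cst7, an inhibitor of cathepsins, was lower with STAT3 deficiency (-1.30).

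T cells also kill through death ligands and cytokines, and several of these genes were higher in STAT3-deficient cells. Of 6 compared, STAT3-deficient cells had 5 higher and 1 lower, with a median of 1.94, where Crtam, the lower one, was at background in STAT3-deficient cells and was at least 1.31-fold lower. In STAT5-deficient cells 1 was higher (Crtam, at least 1.45-fold) and 1 lower. The STAT5 median of -0.30 lies between Fasl and Ifng, both at background on both arrays of that pair. Over all compared genes 2.85% were higher and 7.23% lower for STAT3, and 1.86% and 1.74% for STAT5. Ifng, the interferon of Th1 and cytotoxic cells, stood at 8.56 in STAT3-deficient and 3.84 in STAT3 wild type cells, and at 4.56 in STAT5-deficient and 4.84 in STAT5 wild type cells. Only the STAT3-deficient culture was above background, at least 5.13-fold above its control. Fasl, the ligand of the death receptor Fas, was at least 6.07-fold higher and Tnfsf10, encoding TRAIL, 6.16-fold higher with STAT3 deficiency. For STAT3 the Tnfsf10 probe sets ranged from 1.33 to 2.62 and those of Fasl from 3.62 to 4.76. Lta, a relative of TNF, differed by 1.19 with STAT3 deficiency and by -2.52 with STAT5 deficiency.

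Few other killer lectin receptors and ligands had a level. Of 24 listed genes, killer lectin receptors and related lectins, 14 have a probe set and 4 were compared. Of these 4, STAT3-deficient cells had 1 higher and 0 lower, and 0 passed in STAT5-deficient cells. The call was Clec2i, which encodes a lectin ligand rather than a killer lectin receptor. Clec2i stood at 6.33 in STAT3-deficient and 4.97 in STAT3 wild type cells. The control at background leaves a bound of at least 1.10-fold, and the Clec2i probe sets ranged from -0.27 to 1.36. With values raised to background 0 of the 4 passed. Klrc1, encoding the NKG2A partner of CD94, stood at 8.33 in STAT3-deficient and 8.34 in STAT3 wild type cells, and at 8.63 in STAT5-deficient and 8.85 in STAT5 wild type cells, so Klrd1 was lower in both pairs while Klrc1 differed by -0.01 and -0.22. Of 10 compared adaptor and signalling genes, 0 passed in either deletion, where 10.1% and 3.60% of all compared genes passed. The adaptor and signalling medians were -0.24 and 0.06. Hcst, encoding the DAP10 adaptor of NKG2D, differed by -0.26 and -0.06, and the gene with the largest difference in either deletion was Ptpn6, a phosphatase of inhibitory receptors, at 0.95 for STAT3. Of 13 genes on a separate list of receptor ligands 1 was compared, the cadherin Cdh4, at 0.21 and 0.33.

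Transcription factors of the cytotoxic programme included genes that moved with Nkg7 and Gzmb in direction. Of 24 compared, STAT3-deficient cells had 7 higher and 5 lower, and 4 were higher and 1 lower in STAT5-deficient cells, with medians of -0.10 and 0.37. The shares among all compared genes were 2.85% higher and 7.23% lower for STAT3, and 1.86% and 1.74% for STAT5. The list counts were not tested against these shares. Tbx21, encoding T-bet, stood at 8.94 in STAT3-deficient and 5.25 in STAT3 wild type cells, and at 7.87 in STAT5-deficient and 6.13 in STAT5 wild type cells, at least 6.69-fold and 3.19-fold higher with the deletions. Gata3, the Th2 factor, was higher by 3.22 and 1.75 in the STAT3 and STAT5 pairs. Bcl6 and Tox made up the other upward calls for STAT5, at 1.59 and 1.05, against -0.67 and 0.94 for STAT3. The Tox probe sets ranged from 0.52 to 1.05 for STAT5. Irf8, the downward call for STAT5, differed by -1.06 there and by 2.18 for STAT3. Ikzf2, encoding Helios, was 3.74 higher with STAT3 deficiency, its probe sets ranging from 1.07 to 5.36, and Ikzf3, encoding Aiolos, was lower at -2.66. Eomes and Runx3, which act with T-bet on granule genes in CD8 T cells, differed by -0.05 and -0.42 with STAT3 deficiency and by 0.50 and 0.06 with STAT5 deficiency. The Eomes probe sets disagreed, ranging from -0.05 to 1.51 for STAT3 and from -0.49 to 0.50 for STAT5.

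Among the cytokine receptors that induce granule genes, only those of IL-18 passed 2-fold in either deletion. Of 9 compared, STAT3-deficient cells had 2 higher and 0 lower, with a median of -0.34. In STAT5-deficient cells 1 was higher and 0 lower, with a median of 0.19. Over all compared genes 2.85% were higher and 7.23% lower for STAT3, and 1.86% and 1.74% for STAT5. Il18r1 differed by 3.55 and 0.19 and Il18rap, its accessory chain, by 1.76 and 1.41, in the order STAT3 then STAT5. The Il18rap probe sets ranged from 0.84 to 1.76 for STAT3. Il2ra, Il12rb1, Il12rb2, Il21r, Il2rb and Il27ra were lower for STAT3, by -0.89 to -0.14, and Il15ra was higher at 0.57. The Il2ra probe sets ranged from -1.36 to -0.89 for STAT3 and those of Il15ra from 0.57 to 1.16.

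**Figure D4:**
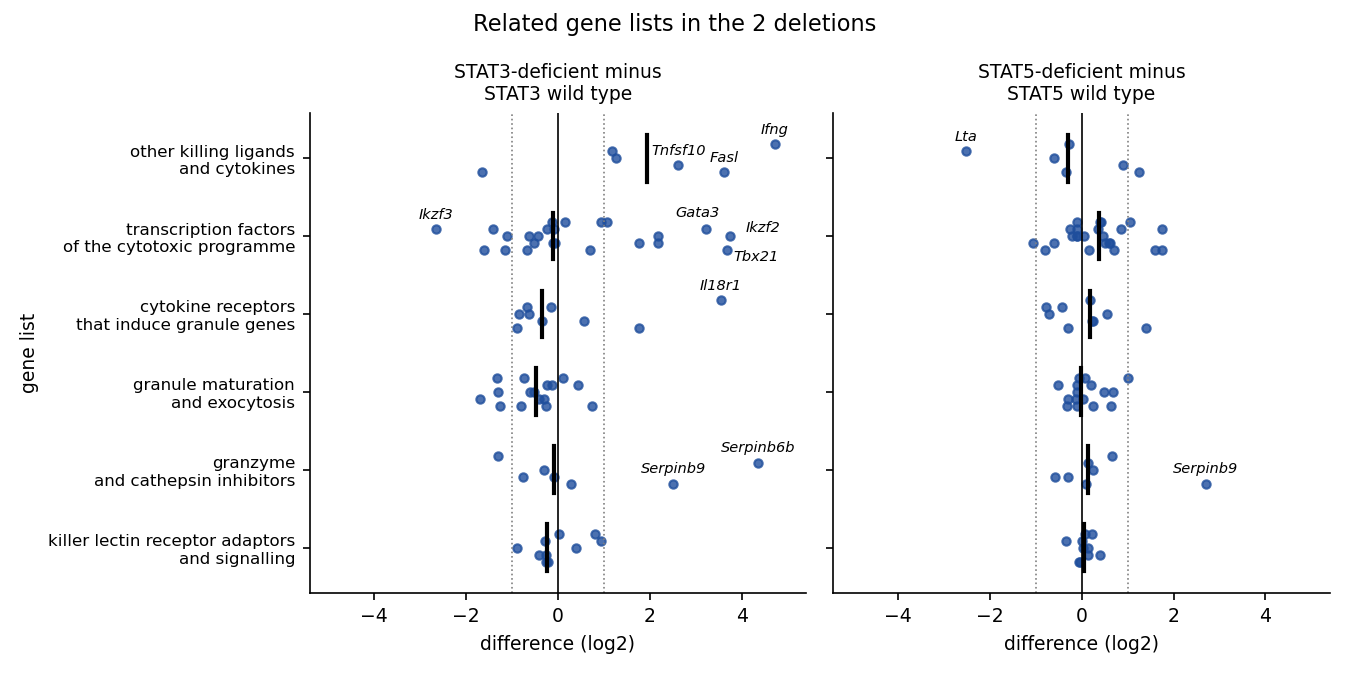
Differences of log2 values of the compared genes on each of 6 related lists in the STAT3 and STAT5 deletions, 1 point per gene, with a bar at each list's median and dotted lines at 2-fold. The list of killing ligands and cytokines has its median at 1.94 in the STAT3 comparison, and that of granule maturation genes at -0.47.

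Genes lying next to the members on the chromosome were read in the same way, beside the 10.1% of all genes past 2-fold for STAT3 and 3.60% for STAT5, so that few calls among few neighbours are near the background. Of the 5 nearest genes on each side of Nkg7, 5 were compared and 0 passed 2-fold in either deletion; the adjacent Lim2 differed by -0.10 and 0.54 and Etfb by 0.91 and -0.05 for STAT3 and STAT5. Around Gzmb 3 of 10 neighbours were compared and 0 passed, and Gzmc, the next granzyme gene in that cluster, read 4.76, 3.44, 4.89 and 4.70, all at background. Around Klrd1 in the NK gene complex 4 were compared and 1 passed with STAT3 deficiency, Klrk1, which was at least 1.56-fold higher, while the adjacent Klre1 differed by -0.91 and -0.38, lower like Klrd1 but short of 2-fold. Around Ctsw 8 were compared and 0 passed. All 8 lay below 0 for STAT3, like Ctsw, at -0.77 to -0.09. The median over all compared genes was -0.20 for STAT3, so differences below 0 were common on these arrays. Around Prf1 1 of 8 compared neighbours passed for STAT3, and around Gzmk and Klrg1 0 of 3 and 0 of 4. The plot of levels in chromosomal order shows the genes around Klrd1, Gzmb and Nkg7.

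**Figure D5:**
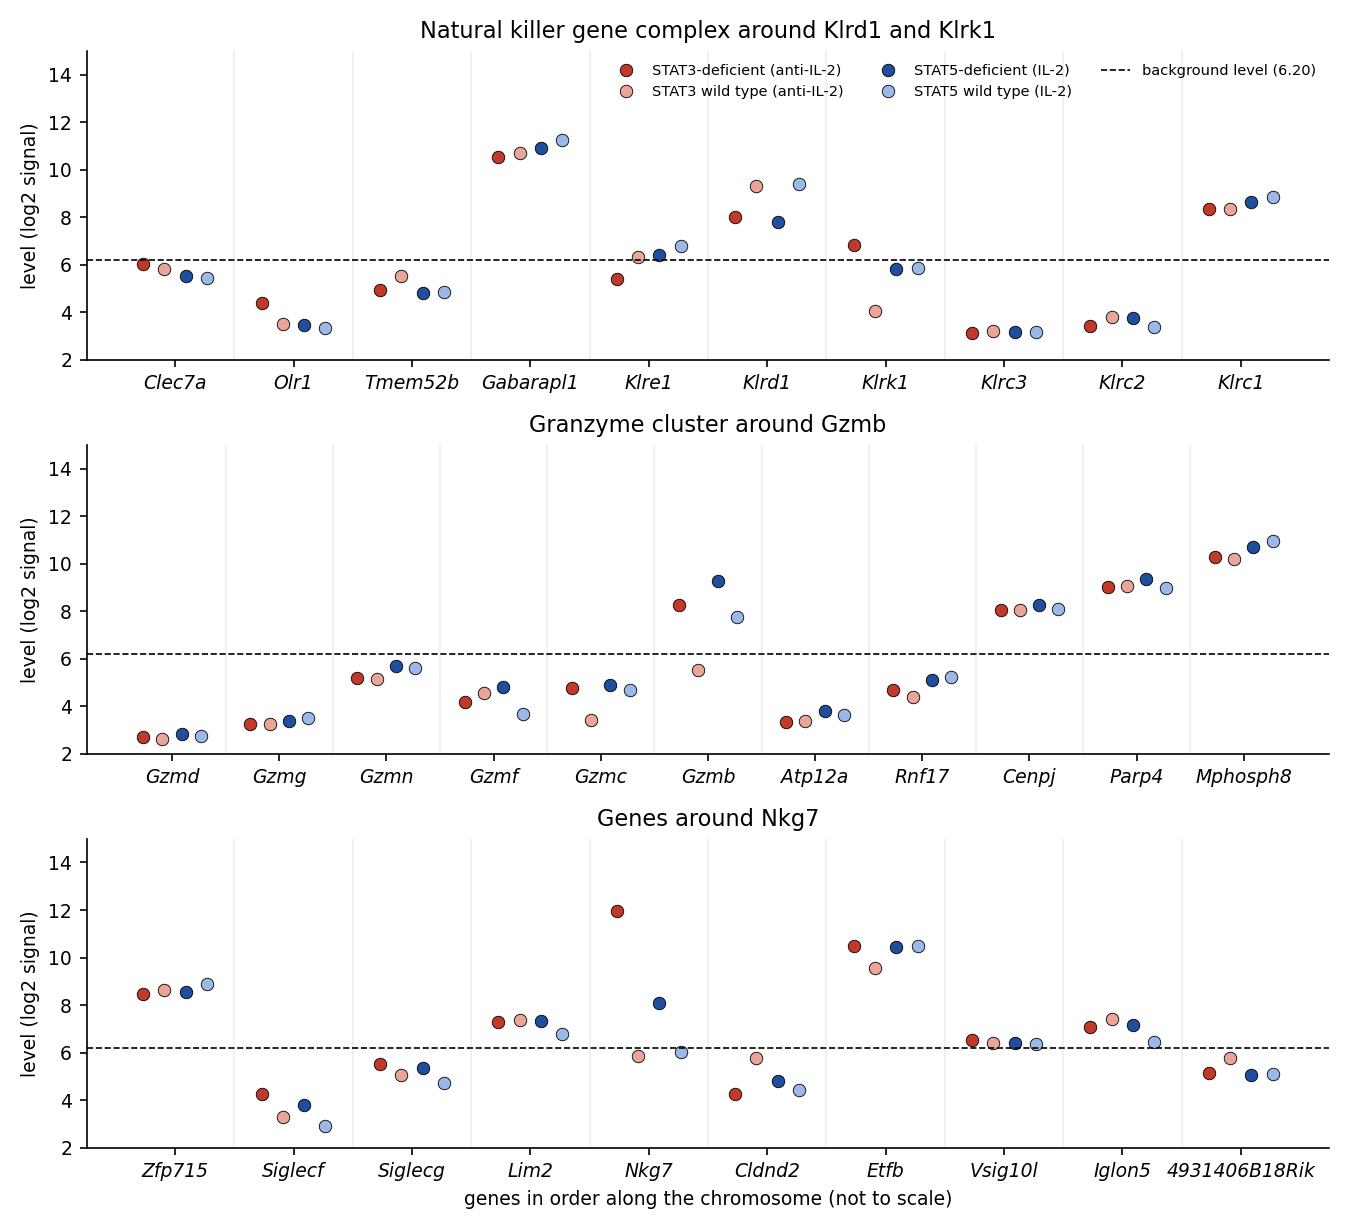
Levels on the log2 scale on the 4 arrays for genes in their order along the chromosome around Klrd1 and Klrk1, Gzmb and Nkg7 (order only, not distance), 1 point per array, with the background level of 6.20 marked. The points of Nkg7 and Gzmb spread apart between arrays, with spans of 6.12 and 3.76, and those of the neighbouring granzyme genes lie under the background level.

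Genes whose 4-array profile was most like that of a member, by Euclidean distance between log2 profiles each centred on its own mean, were found for the 5 members with a span of 1 or more. The span is the highest minus the lowest of the 4 values. Nearest to Nkg7 were Lad1 (0.40), Idi2 (0.81) and Car2 (1.43), with Lad1 at 12.31 in STAT3-deficient, 6.44 in STAT3 wild type, 8.14 in STAT5-deficient and 6.39 in STAT5 wild type cells. Nearest to Gzmb were Dsp (0.87), Cth (1.06) and Ankrd33b (1.19), and nearest to Klrd1 were Rhoc (0.21), Rhoq (0.22) and Ier3 (0.30). Klrk1 was nearest to Il1a (0.20), Prickle1 (0.44) and Stra6 (0.46), and Ctsw to Magea7-ps (0.11), Abcc12 (0.12) and 1700018A04Rik (0.13). The distances use deposited values, also those at background. Klrk1 and Il1a were above background only in STAT3-deficient cells, so their match rests largely on values at background. Abcc12 and 1700018A04Rik were above background only in STAT3 wild type cells, at 6.49 and 6.62, whereas Ctsw was far above it on all arrays. These are descriptions over 4 arrays, and distances are smaller for members with a small span, 1.33 for Ctsw against 6.12 for Nkg7.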

How the data were processed

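Affymetrix Mouse Genome arrays, 1 per group, were hybridised with biotin-labelled total RNA. Per the submitters' processing notes, Affymetrix Power Tools was used (for its version, background correction and summarisation: not given in the sources used here). As the authors gave them, the deposited log2 values per probe set were used. Their base was read from the values: antilogs to base 2 step by 1 unit between levels 8 and 9 (98.4 to 99.2% of steps within 0.01). Below level 5 steps shrink, so low differences are not plain ratios.

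Groups come from the sample titles. Probe sets naming 1 gene (34958 of 45101) were kept, and a gene's value is the probe set with the highest mean. The background level, 6.20, is the median of all values (73.4 linear units). A gene with its highest value at or under it was not compared. A dim value under it was set to it for "at least" folds. Differences were called at 2-fold, with no test. Lists, members and tests were chosen with earlier results of these data known. Genes were named by rule: all members, the targeted genes, up to 4 per list with the largest difference past 2-fold, and 3 like genes per member. Klrc1, Hcst, Rab27a, Zbtb32, Gnptab, Crtam, Irf8, Bcl6, Tox, Eomes, Runx3, the marker genes and the chromosomal neighbours were chosen after their values were seen. So were the cytokine receptors short of 2-fold. Gene order and promoters are from RefSeq, GRCm38.p6. Alternatives tried were array centring, intensity-dependent centring, averaged probe sets, probe sets ending in _s_at and _x_at left out, other filters, 1.5-fold and 3-fold thresholds, and values raised to background (added after seeing the data). Scripts ran in Python 3.11.15 with pandas 2.3.3, numpy 2.4.6 and statsmodels 0.14.6 and were tested on simulated data.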

Additional observations from a re-analysis of the deposited data

Results flagged for a closer look

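Of the 9 members, 4 had differences of opposite sign in the 2 deletions, and with 1 array per group the gap between the deletions was not tested. For Klrk1 the STAT3 difference minus the STAT5 difference was 2.84, from 2.79 and -0.05, with 3 of its 4 values at background. For Gzmk the gap was 2.58 and for Gzma 1.74, with all values of both genes at background. For Prf1 it was -1.21, from -0.99 and 0.23, and its other probe set gave -0.22 and 0.24. Cultures of the STAT3 pair received anti-IL-2 and those of the STAT5 pair IL-2, which cannot be told apart from the deletion in these gaps.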

How the results depend on the processing

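Nkg7 and Gzmb stayed 2-fold higher in both deletions, and Klrd1 2-fold lower in both, under array centring and intensity-dependent centring. Klrd1 was -1.03 and -1.09 for STAT3 under these 2 centrings. With values raised to background Nkg7 and Gzmb also stayed 2-fold higher in both. That setting could not change Klrd1, or Gzmb for STAT5, because those values were all above background. Averaging or leaving out probe sets could not change these genes, each with 1 probe set not ending in _s_at or _x_at. Klrk1 dropped out of the STAT3 calls with values raised to background, at 0.64, and with the filter at level 8.29. Gzmk joined them without a filter and under array centring. No member called in a comparison changed sign; of the other members, Klrd1 between controls was 0.08 and -0.07 under intensity-dependent centring. At 1.5-fold 7 members passed for STAT3 (4 at 2-fold), and at 3-fold 1 member passed for STAT5 (3 at 2-fold). Over all genes the STAT3 calls were 1254 in the main setting, 774 with the filter at 8.29, 3093 at 1.5-fold and 522 at 3-fold. The STAT5 calls were 448, with 679 without a filter, 254 with the filter at 8.29, 1444 at 1.5-fold and 143 at 3-fold. The control calls were 659, with 356, 2584 and 177 for the last 3 settings. The lower share of calls was 71.8% for STAT3 and 52.4% after array centring or 56.5% after intensity-dependent centring, and between controls 55.7% and 26.5% after array centring. No paired analysis was possible because each group has 1 array, and for the same reason no replicate could be left out. The cause of these changes was not tested.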

Other observations

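Between the 2 control cultures, STAT5 wild type (IL-2 added) minus STAT3 wild type (IL-2 neutralised), some genes on the related lists passed 2-fold. They were 1 of 16 granule maturation genes, 3 of 24 transcription factors, 1 of 9 cytokine receptors and 1 of 7 inhibitors. Of 6 killing ligands and cytokines 1 was higher and 1 lower, and 0 of 10 adaptor and signalling genes passed. Over all compared genes 5.30% passed, 2.35% higher and 2.95% lower, and the counts were not tested against these shares. Rab27a, which docks granules at the membrane, stood at 10.15 in STAT5 wild type and 8.80 in STAT3 wild type cells, a difference of 1.35. Lta was at 13.96 in STAT5 wild type and 11.19 in STAT3 wild type cells, and Ikzf2 at 9.11 and 7.06 in the same order. Il18r1 (1.34), Irf8 (1.32) and Zbtb32 (1.36) were higher in STAT5 wild type cells. Serpinb9 (-1.78) and Crtam (-1.09) were at background in STAT5 wild type cells, which leaves bounds of at least 1.13-fold and 1.31-fold lower. These are values of 1 array each, and IL-2 and the floxed line cannot be told apart.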
